A study of Mus musculus with 36 samples.

Results

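The 44 genes described here encode the secreted WNT ligands (19 genes), their receptors and co-receptors (15 genes) and secreted WNT antagonists (9 genes), together with Axin2, a feedback inhibitor inside the cell. They were listed by name and not by a measured value, but the list was chosen with earlier results of these data known. The open chromatin of each gene was read from 12 lists of ATAC-seq peaks, an assay in which a transposase cuts accessible DNA. Overlapping peaks (1 bp or more) from any of the lists were joined, and the joined interval, termed a region, counts as called wherever a list has a peak on it. The window of a gene was its body plus 50 kb on each side in the mm10 build. The 44 windows held 341 of the 65543 regions of the series: 118 at ligands, 148 at receptors, 67 at antagonists and 8 at Axin2, with 25 regions lying in windows of more than 1 member.

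The 36 libraries were made from cartilage cells (chondrocytes) microdissected from the autopod, the hand or foot, of mouse embryos of the FVB/NJ strain. The embryos were at E15.5 and the labels name no treatment. The libraries formed 12 groups of 3: the metacarpals, the hand phalanges, the metatarsals and the foot phalanges, each of digits I, III and V. Per the labels, each library joined the left and right elements of 3 to 5 littermates, 6 to 10 limbs in all, so no library stands for a single embryo. The files analysed here hold 1 list per group, pooled over its libraries. Hence each list is a single measurement, all spreads are spreads between lists, and a region open in fewer cells cannot be told apart from one less open in each cell.

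WNT ligands are lipid-modified secreted proteins that bind Frizzled receptors at the cell surface. With the co-receptors Lrp5 and Lrp6 they stabilise beta-catenin, which acts on target genes with TCF and LEF factors, whereas other ligands act without beta-catenin through Ror1, Ror2 or Ryk. The Sfrp proteins, Frzb and Wif1 bind ligands, and Dkk1 and Dkk2 block the co-receptors. In the limb skeleton, beta-catenin signalling is known for restraining chondrogenesis and for joint formation, and Wnt5a with Ror2 for digit outgrowth.

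The lists held 36194 to 53276 peaks, and their weakest peaks had −log10 p-values between 23.0 and 49.6, so that absence of a region can mean a peak under that threshold and need not mean closed chromatin. Digit III lists were longer on average, at 44550 ± 4015 called regions (SD, n = 4 lists) against 36771 ± 3285 in the other 8 (two-sided exact permutation p = 0.0247). Of 9 chondrocyte markers, 7 had a peak within 1 kb of an end of the gene in all 12 lists, among them Sox9, Col2a1 and Acan, whereas Matn1 had one in 9 lists and Sox5 in none. The epidermal markers Trp63, Krt5 and Krt14 and the blood markers Ptprc, Csf1r and Gata1 had such a peak in no list, whereas Cdh1 and Spi1, of the same marker lists, had it in all 12. Of the muscle markers, Myf5 had it in 10 lists, Myod1 and Pax7 in 8 each and Myog in 2.

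The starts of most WNT genes were open in every skeletal element. RefSeq promoter sequences for GRCm38.p6, which shares the coordinates of mm10, were matched for 31 of the 44 members. Of these, 29 (93.5%) had a peak within 1 kb of a start in all 12 lists, against 62.5% of 17492 protein-coding genes. When peaks had to cover 50% of a region, 17 (54.8%) did, against 38.0% of the protein-coding genes. Without that demand, all 9 matched receptors and all 6 matched antagonists were among the 29, as were Axin2 and 13 of 15 ligands. The ligand Wnt3a had an open start in 9 lists, missing from metacarpals I and III and metatarsal V, and Wnt8b in none; both are named because they were the exceptions. For the 13 members without a matched promoter, a peak lay within 1 kb of an end of the gene in all 12 lists. Of 21887 protein-coding genes, 61.3% had a peak at either end in all 12 lists. A peak near an end need not mark the start.

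The 250 bases before the start are printed for starts that differ in openness, in lower case with each CG dinucleotide in capitals. Wnt9a, a ligand of the forming joint, held the most CG dinucleotides of the members, and Wnt3a lies near it in the genome, while Wnt8b had the start that no list called. Wnt5b, a ligand of prehypertrophic chondrocytes, is shown with its 3 annotated starts. Ror2, Dkk1, Wif1 and Axin2 stand for receptors, antagonists and the feedback inhibitor.
Wnt9a (chr11:59306680-59306929, plus strand): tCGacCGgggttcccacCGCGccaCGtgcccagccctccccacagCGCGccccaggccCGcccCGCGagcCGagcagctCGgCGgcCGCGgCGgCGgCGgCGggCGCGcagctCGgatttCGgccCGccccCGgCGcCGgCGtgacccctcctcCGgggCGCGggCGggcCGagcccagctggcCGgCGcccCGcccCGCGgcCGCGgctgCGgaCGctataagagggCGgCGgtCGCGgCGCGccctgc
Wnt3a (chr11:59290752-59291001, minus strand): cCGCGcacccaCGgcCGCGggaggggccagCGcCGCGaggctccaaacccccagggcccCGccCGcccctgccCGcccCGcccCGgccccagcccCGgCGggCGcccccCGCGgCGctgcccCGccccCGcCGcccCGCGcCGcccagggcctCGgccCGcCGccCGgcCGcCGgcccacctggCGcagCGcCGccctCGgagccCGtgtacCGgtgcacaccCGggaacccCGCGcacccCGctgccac
Wnt8b (chr19:44493222-44493471, plus strand): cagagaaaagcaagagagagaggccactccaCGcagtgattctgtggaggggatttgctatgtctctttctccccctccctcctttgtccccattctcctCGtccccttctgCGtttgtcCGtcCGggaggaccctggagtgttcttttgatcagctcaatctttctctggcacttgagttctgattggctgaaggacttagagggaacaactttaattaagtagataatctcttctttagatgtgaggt
Wnt5b, most downstream start (chr6:119449387-119449636, minus strand): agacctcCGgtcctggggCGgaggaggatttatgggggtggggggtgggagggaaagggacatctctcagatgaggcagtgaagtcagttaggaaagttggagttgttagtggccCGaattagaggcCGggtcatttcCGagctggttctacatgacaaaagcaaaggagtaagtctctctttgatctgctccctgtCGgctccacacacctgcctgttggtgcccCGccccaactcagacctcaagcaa
Wnt5b, middle start (chr6:119467212-119467461, minus strand): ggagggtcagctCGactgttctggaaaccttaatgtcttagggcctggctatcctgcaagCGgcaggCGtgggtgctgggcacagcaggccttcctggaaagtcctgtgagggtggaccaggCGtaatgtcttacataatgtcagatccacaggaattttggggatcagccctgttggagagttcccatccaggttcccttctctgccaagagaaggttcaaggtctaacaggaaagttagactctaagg
Wnt5b, most upstream start (chr6:119544348-119544597, minus strand): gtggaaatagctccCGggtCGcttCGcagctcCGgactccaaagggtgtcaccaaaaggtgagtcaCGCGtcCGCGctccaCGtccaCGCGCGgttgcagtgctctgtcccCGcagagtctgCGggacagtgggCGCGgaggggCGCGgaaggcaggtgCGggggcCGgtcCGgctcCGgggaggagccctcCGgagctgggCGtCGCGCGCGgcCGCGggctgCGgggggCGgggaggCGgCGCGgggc
Ror2 (chr13:53286125-53286374, minus strand): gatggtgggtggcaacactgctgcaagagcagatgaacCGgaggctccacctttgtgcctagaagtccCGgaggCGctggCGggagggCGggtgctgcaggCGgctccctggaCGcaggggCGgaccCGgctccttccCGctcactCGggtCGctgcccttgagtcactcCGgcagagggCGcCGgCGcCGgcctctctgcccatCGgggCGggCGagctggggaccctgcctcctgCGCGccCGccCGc
Dkk1 (chr19:30549497-30549746, minus strand): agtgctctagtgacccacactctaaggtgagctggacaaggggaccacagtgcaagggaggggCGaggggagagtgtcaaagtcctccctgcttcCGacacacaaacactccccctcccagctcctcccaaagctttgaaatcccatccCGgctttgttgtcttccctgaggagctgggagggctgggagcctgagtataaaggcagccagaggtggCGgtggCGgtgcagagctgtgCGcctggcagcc
Wif1 (chr10:121033754-121034003, plus strand): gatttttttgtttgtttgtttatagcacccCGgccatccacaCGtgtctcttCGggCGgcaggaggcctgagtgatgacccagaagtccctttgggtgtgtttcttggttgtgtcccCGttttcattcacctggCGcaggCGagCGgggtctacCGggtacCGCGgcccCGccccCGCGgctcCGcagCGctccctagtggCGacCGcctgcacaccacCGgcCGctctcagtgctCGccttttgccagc
Axin2 (chr11:108920099-108920348, plus strand): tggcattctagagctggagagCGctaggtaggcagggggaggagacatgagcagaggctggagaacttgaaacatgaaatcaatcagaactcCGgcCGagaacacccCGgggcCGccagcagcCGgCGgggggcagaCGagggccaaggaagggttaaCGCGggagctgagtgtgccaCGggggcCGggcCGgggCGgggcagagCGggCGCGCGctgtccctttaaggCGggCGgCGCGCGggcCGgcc

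These promoters differed in composition and in how many lists covered them. Wnt9a had 48 CG dinucleotides in 250 bases, Wnt3a 41 and Wnt8b 5. Wnt5b had 35 at its most upstream start, at chr6:119544348-119544597, and 7 at its most downstream start, at chr6:119449387-119449636, both covered by peaks in all 12 lists. The start between them, with 4, was covered in no list. Dkk1, an inhibitor of Lrp5 and Lrp6, was covered in 12 lists with 6 CG dinucleotides. Thus low CG content was found both at starts open in every list and at starts open in none. Over the members open in all lists the median was 23.0 (6 to 48, n = 29 genes), against 17.0 in all 10933 protein-coding genes open in all lists and 2.0 in the 5430 open in none. The TCF and LEF recognition letters CTTTGAT, on either strand, were in 2 of 34 member promoters (Wnt11 and the most downstream Wnt5b start), and in 2.8% of 21263 promoters of protein-coding genes. The related CTTTGTT was in those of Dkk1 and Fzd7 (4.4% of all promoters), and the GC box GGGCGG was in 26 of 34 (42.6% of all). TATAAA was in 6, those of Dkk1, Dkk2, Fzd1, Ryk, Wif1 and Wnt11 (11.6% of all). Such matches are letters in a window, and no binding was measured.

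**Figure D1:**
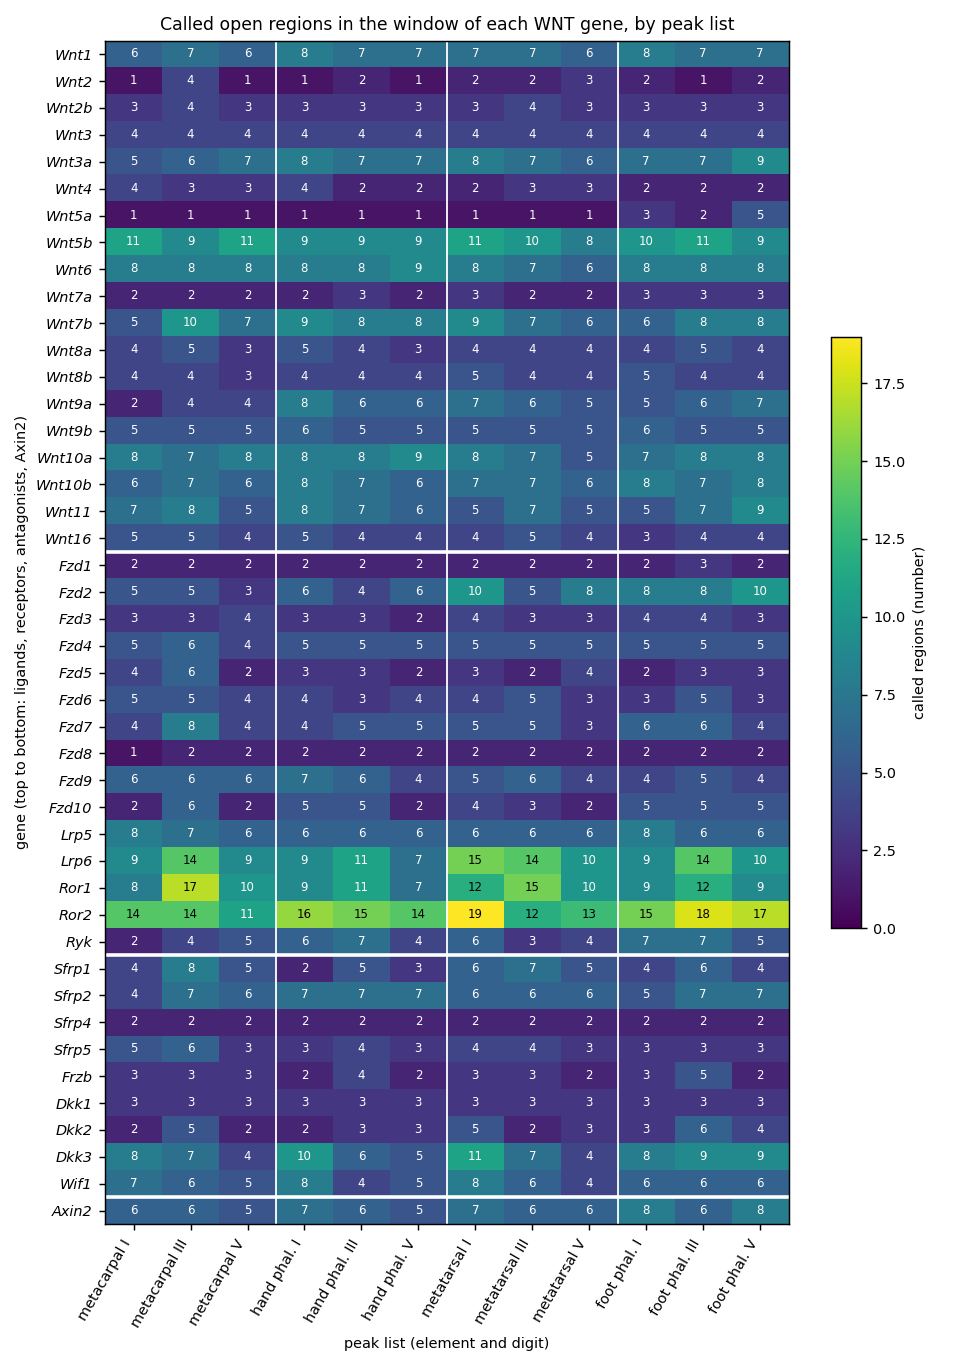
Number of called regions in the window of each of the 44 WNT genes (rows, by class) in each of the 12 peak lists (columns), with the number printed in each cell and the colour scale in regions. Ror2, Ror1 and Lrp6 hold the highest counts, Wnt3, Sfrp4 and Dkk1 have the same count in every list, and Wnt5a exceeds 1 in the foot phalanx lists alone.

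All 44 members had at least 1 region that was called in all 12 lists, as had 92.0% of the 19301 protein-coding genes with any region in their window. A member window held 2 to 26 regions with a median of 8.0, against 6.0 over all genes. Of the 341 member regions, 138 (40.5%) had a peak in each of the 12 lists and 58 (17.0%) in just 1. In the windows of all protein-coding genes the first share was 39.8%. The share called in all lists was 49.2% for ligands (58 regions), 36.5% for receptors (54 regions) and 32.8% for antagonists (22 regions). These shares are descriptions without a test. Member regions called in all lists were also the stronger ones, as in the whole series. Their median rank, taken at the best peak of each list by −log10 p, was at 37.7% from the top of the list, whereas regions called in a single list stood at 90.1%. Over all regions of the series these values were 28.9% and 90.5%. Of the member regions, 146 overlapped a member gene body, and 65 of the 195 in the flanks overlapped another protein-coding gene, so the window does not tie a region to its WNT gene.

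Few members differed in the number of called regions between limbs, elements or digits at an unadjusted exact p of 0.05. No gene of the 19301 passed Benjamini-Hochberg adjustment in any comparison (smallest adjusted exact p = 0.398). List labels of each gene were permuted while the other 2 factors were held fixed. This allows no exact p below 0.0312 for limb or element, or 0.0123 for digit. At such floors an adjusted p of 0.05 would need a large share of all genes at the floor at once. The adjustment therefore could not show whether single genes differed. Between limbs, 0 of 44 members reached an unadjusted exact p of 0.05, with backgrounds of 0.523% of all genes higher in the hindlimb and 0.0829% higher in the forelimb. Between elements, Sfrp1 had more regions in metapodials (background 0.938%) and 0 members had more in phalanges (0.876%). In digit I, Wif1 had more regions than in digits III and V (background 0.995%), and 0 members had fewer (0.57%). In digit III, Ror1, Sfrp1 and Lrp6 had more regions than in digits I and V. These 3 members are 6.82% of the list, against a background of 10.8% of all genes, and 0 members had fewer (0.0259%). The members' share was above that of all genes under 4 of 8 other settings and without metacarpal III, foot phalanx I or foot phalanx III, so its order against the background was not stable. Scaled per 10000 called regions of each list, the same 3 were higher in digit III (3.44% of all genes). A further 14 members were lower (26.4%), but division by the longer digit III lists lowers the value of every gene there, and 3 of the 14, Wnt3, Sfrp4 and Dkk1, had the same count in every list. In digit V, 0 members were higher (0.0518%) or lower (3.38%) at that threshold. The 3 digit comparisons share lists and are not independent.

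Among the ligands, Wnt5a, which directs outgrowth of the limb and digits, had few called regions outside the foot phalanges. Its window had 1 called region in each of the 3 metacarpal, 3 hand phalanx and 3 metatarsal lists, and 3, 2 and 5 in the foot phalanx lists of digits I, III and V. The shared region, chr14:28499797-28512500, is 12704 bp wide and overlaps the gene, and every list had a peak in it, none as wide as the region. The other 5 regions were called in foot phalanx lists and in no other list, at 1 to 2 lists each. They ranked low, with the best peak of a list at 64% to 99.7% from its top. The mean was 2.17 ± 1.6 in the hindlimb and 1.0 ± 0.0 in the forelimb (SD, 6 lists each, exact permutation p = 0.25), and the same values held for phalanges against metapodials. Neither comparison passed. Of the 5 regions, chr14:28465280-28466395 and chr14:28466886-28470006 overlap the neighbouring gene Erc2, which encodes a presynaptic scaffold.

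**Figure D2:**
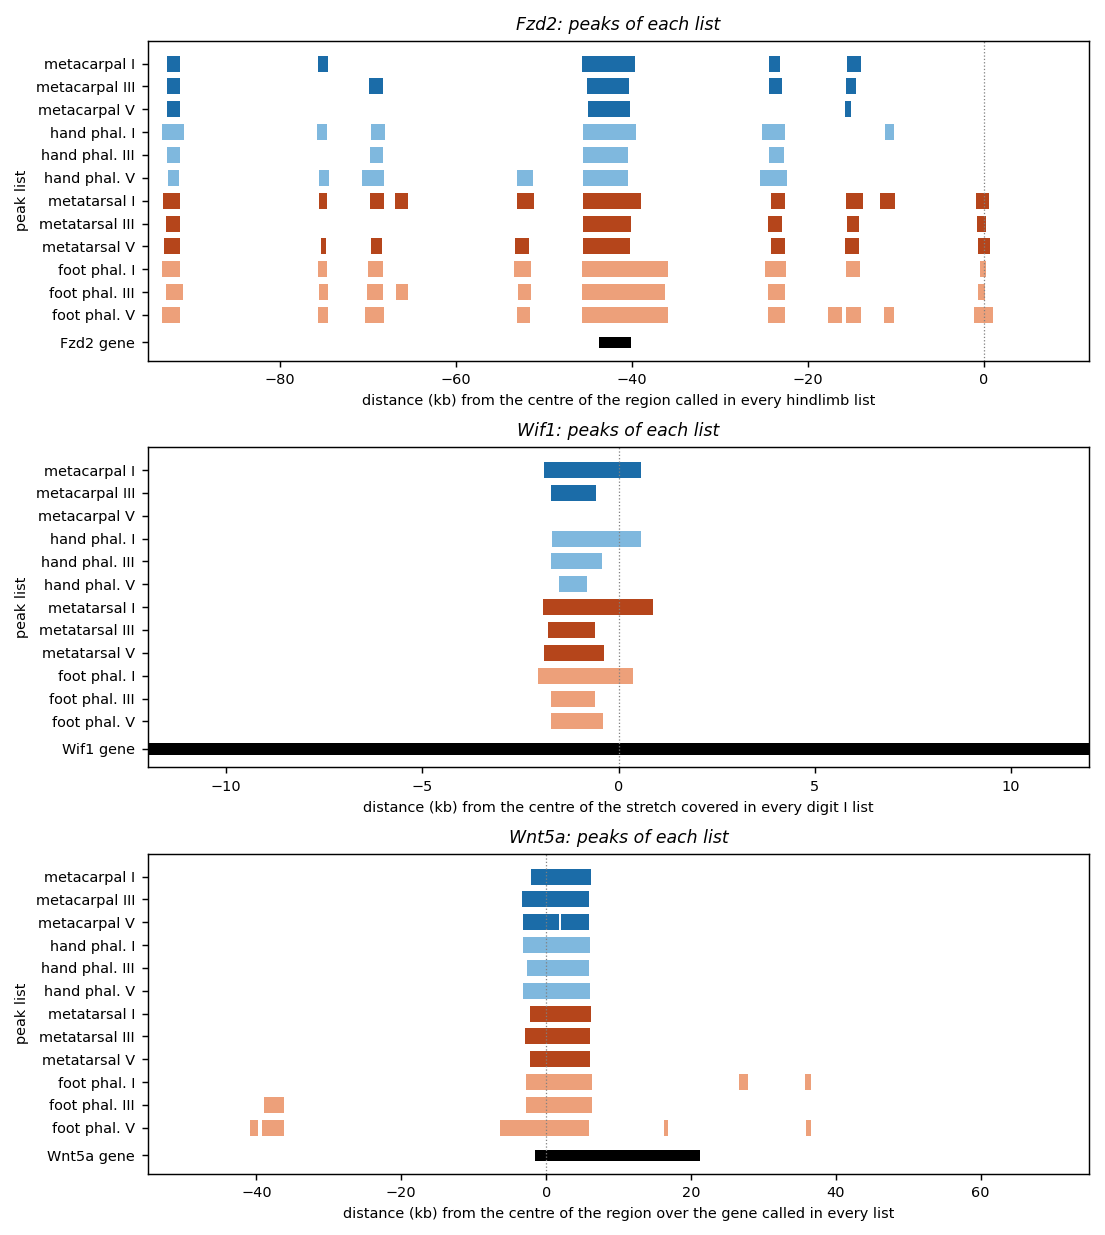
Peaks of each of the 12 lists (bars, coloured by element) along 3 WNT genes, with distance in kb from the centre of the named region or stretch and the gene as a black bar. At Fzd2 a peak at 0 is present in the 6 hindlimb lists alone; at Wif1 the peaks of the 4 digit I lists reach across 0; at Wnt5a the small outer peaks belong to the 3 foot phalanx lists.

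Regions in foot phalanx lists and no other were not particular to Wnt5a. Among the 341 member regions, 29 (8.5%) were called only in foot phalanx lists, against 5.65% of all regions, in the windows of 18 members. Metacarpal lists alone called 18 (5.28%, against 9.09% of all), hand phalanx lists alone 14 (4.11% against 2.62%) and metatarsal lists alone 10 (2.93% against 3.49%). Called in all 3 foot phalanx lists and in no other were 2 member regions, both inside Ror2 (0.587%, against 0.493% of all regions). For metacarpals (0.119% of all), hand phalanges (0.0107%) and metatarsals (0.0961%) there were 0.

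Wnt4, a ligand expressed in joints and in the perichondrium, had 4, 3 and 3 called regions in metacarpals I, III and V and 2, 3 and 3 in the metatarsals. In hand phalanges I, III and V it had 4, 2 and 2, and in each foot phalanx list 2. The 3.0 ± 0.63 regions in metapodials and 2.33 ± 0.82 in phalanges overlapped (SD over 6 lists each, exact permutation p = 0.125). A region 25.8 kb upstream, chr4:137250229-137251805, was called in 5 of 6 metapodial lists, all but metatarsal I, and in no phalanx list. Its best peaks ranked between 51.1% and 90.3%. Across the series, 1.07% of regions separated metapodials with this tolerance of 1 list on each side, which was chosen after the data were seen.

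Wnt9a had 2, 4 and 4 called regions in metacarpals I, III and V, 8, 6 and 6 in hand phalanges, 7, 6 and 5 in metatarsals and 5, 6 and 7 in foot phalanges. The metacarpal lists were the lowest, yet 4.67 ± 1.75 in metapodials against 6.33 ± 1.03 in phalanges did not pass (SD over 6 lists each, exact permutation p = 0.312). Its start region, chr11:59302166-59310317, was called in all lists with best ranks of 18% to 33.9%. The start of the nearby Wnt3a lies in a region, chr11:59288348-59292943, that ranked lower (53.5% to 98.2% in the 9 lists that called it). That region lies in both windows. Wnt1 with Wnt10b, Wnt6 with Wnt10a, and Wnt3 with Wnt9b are further neighbours whose windows overlap, so their counts are not independent.

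The ligands with the most regions were Wnt11, Wnt5b and Wnt7b, with 13, 12 and 11. Wnt11, a ligand of the beta-catenin-independent branch, had 5 to 9 called regions in a list (median 7.0), of which 5 were called in all lists. Wnt5b, whose gene is 112.3 kb long, had 8 to 11 (median 9.5) and 8 called in all. Wnt7b, known from bone formation, had 5 to 10 (median 8.0) and 4 called in all. At the main setting (all peaks, merged regions, 50 kb flanks) none of the 3 passed in any comparison. Their lowest exact permutation p there was 0.333. Among the more significant 50% of peaks all 3 had fewer regions in digit V, as had the receptor Fzd9 and Axin2. The share of all genes that passed in digit V at that setting is given below, under the dependence on processing. The exact permutation p was 0.0123 for Wnt11 and 0.037 for Wnt5b and Wnt7b. With lists of equal length Wnt7b passed with 2.5 more regions in phalanges (7.67 against 5.17, exact permutation p = 0.0312, background 1.77%) and with 1.25 more in digit V (exact permutation p = 0.0494). Wnt16, a ligand of bone and joint tissue, had 3 to 5 called regions (median 4.0). The other 12 ligands had between 1 and 9 called regions in a list, and none of them passed at the main setting. Some passed under alternatives, among them Wnt8a with more regions in digit III at 50% cover (exact permutation p = 0.037, background 9.05%). Others were Wnt3 with more in digit I at 100 kb flanks (exact permutation p = 0.0247) and Wnt1 with fewer in digit V with summit windows (exact permutation p = 0.0494). Wnt3, with 4 regions, was the only ligand with the same count in all 12 lists.

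Among the members, Fzd2 had the lowest exact p between limbs at the main setting. This Frizzled gene, which has been linked to skeletal growth in humans, had 5, 5 and 3 called regions in metacarpals I, III and V and 6, 4 and 6 in hand phalanges. The metatarsals had 10, 5 and 8 and the foot phalanges 8, 8 and 10. All hindlimb lists except metatarsal III, with 5, were above every forelimb list. The means were 8.17 ± 1.83 in hindlimb and 4.83 ± 1.17 in forelimb lists (SD, n = 6 lists each), a difference of 3.33 with an exact permutation p of 0.0625 and an adjusted p of 1.0. At equal list length, with each list cut to its 36194 most significant peaks, the difference was 3.0 and the exact permutation p 0.0312, and without metatarsal III it also passed. Among the more significant 50% of peaks it was 0.5 (exact permutation p = 0.25), and with 10 kb flanks 0.67 (exact permutation p = 0.125).

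A region 39.1 kb from Fzd2, chr11:102647129-102649257, had a peak in each of the 6 hindlimb lists and in none of the forelimb. The series had 50 regions of this pattern (0.0763% of all regions). With no exception allowed, 0 member regions separated the forelimb (0.0061%), phalanges (0.119%), metapodials (0.0915%), digit I (0.0061%) or digits III and V (0.00153%). Nor did any separate digit III (0.117%), digits I and V (0.0%), digit V (0.00153%) or digits I and III (0.0259%). The fold enrichment of the Fzd2 region, a value of the authors' peak caller as are all folds and ranks here, was 9.28, 8.3 and 8.39 in metatarsals I, III and V and 7.4, 5.85 and 8.31 in foot phalanges. Each was below the median fold of its own list, and the ranks lay between 52.0% and 85.4%. At equal list length 5 hindlimb lists kept it, still with no forelimb list, and among the more significant 50% of peaks no list held it. A stretch of 645 bp within it, chr11:102647709-102648353, was covered by a peak of every hindlimb list and of no forelimb list, as were 61 such stretches of 500 bp or more in the series. The broad peak over Fzd2 itself was also wider in the foot phalanges, at 9.78, 9.42 and 9.78 kb in digits I, III and V, than in the other 9 lists, where it spanned 4.76 to 6.59 kb. Muscle markers, summed over 4 genes, had 9 to 15 called regions in hindlimb and 7 to 13 in forelimb lists. Their part in the Fzd2 pattern was not tested.

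**Figure D3:**
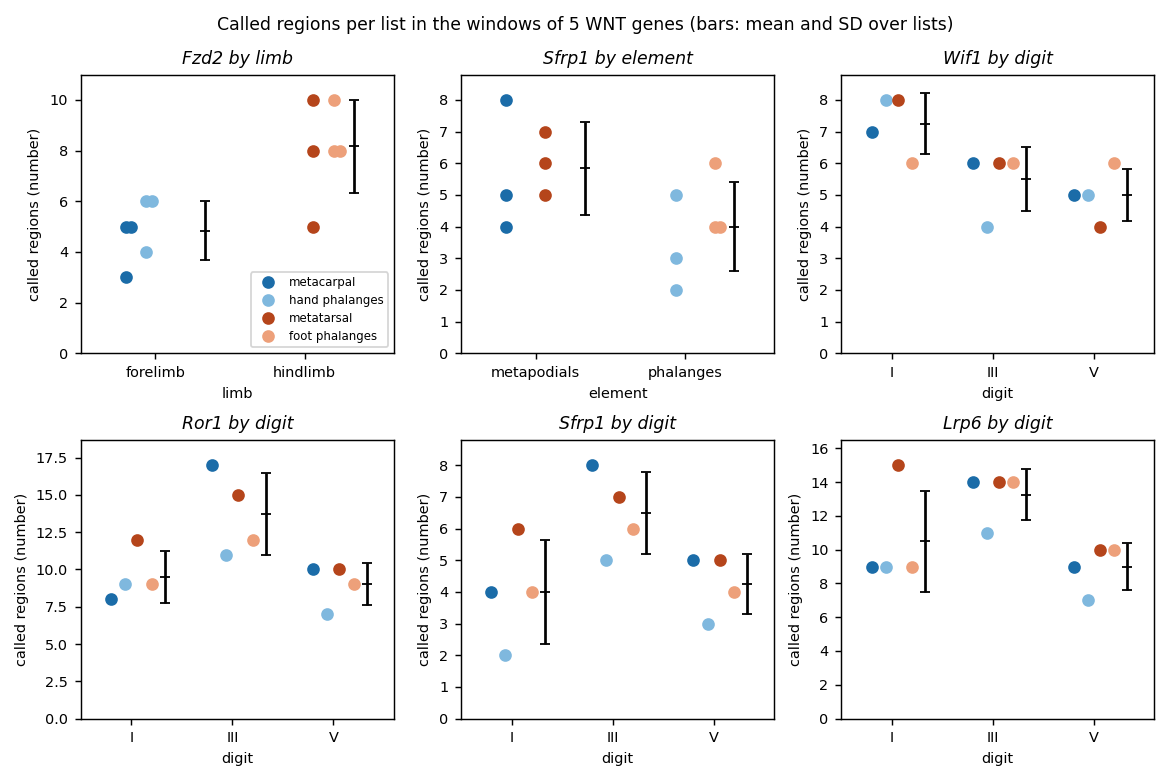
Called regions per list (points, coloured by element) for Fzd2 by limb, Sfrp1 by element, and Wif1, Ror1, Sfrp1 and Lrp6 by digit, with the mean and SD over lists beside them. The hindlimb lists of Fzd2 lie at 5 to 10 and the forelimb lists at 3 to 6; for Ror1 the digit III lists lie at 11 to 17.

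Ror2, a receptor tyrosine kinase for Wnt5a that is required for digit formation, had more regions in its window than any other member, 26, of which 9 were called in all lists. Its gene spans 176.8 kb. Metacarpals I, III and V had 14, 14 and 11 called regions, hand phalanges 16, 15 and 14, metatarsals 19, 12 and 13, and foot phalanges 15, 18 and 17. Phalanges averaged 15.83 ± 1.47 and metapodials 13.83 ± 2.79, which overlapped (SD over 6 lists each, exact permutation p = 0.25). Among the more significant 50% of peaks Ror2 had 2.67 more regions in phalanges (exact permutation p = 0.0312). At that setting it also had 3.0 more in hindlimb lists (8.0 against 5.0, exact permutation p = 0.0312). The shares of all genes that passed there are given below, under the dependence on processing. At equal list length Ror2 had 2.17 more in phalanges (exact permutation p = 0.0625). With lists of equal length it also had fewer regions in digit III than in the other digits (10.75 against 13.5, exact permutation p = 0.0123, background 1.56%).

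An intragenic region of Ror2, chr13:53269177-53270775, stood out by its strength. It was called in 7 lists: all 3 hand phalanx lists, metatarsals I and V, and foot phalanges I and V. Its fold enrichment was 43.2, 66.0 and 39.1 in hand phalanges I, III and V, 40.5 and 49.7 in metatarsals I and V, and 47.3 and 39.0 in foot phalanges I and V. The median folds of all 12 lists were 8.93 to 15.6. No metacarpal list held a peak there, nor did metatarsal III or foot phalanx III. The best peak ranked at 4.08% to 18.2% from the top of the lists that had it, with a median of 11.8%. Only 2 of the 2327 regions called in 7 lists, this one included, ranked that high (0.0859%), and their median was 78.3%. The neighbouring region chr13:53265312-53268457 was called in 8 lists, again in no metacarpal list. Regions called in none of the 3 metacarpal lists and in 7 or more of the other 9 made up 4 member regions and 0.874% of all regions. They lay at Ror2, Dkk2 and Wnt9a, and they and the other Ror2 regions were singled out after their values were seen. The same rule gave 2 for the hand phalanges (0.406%), 0 for the metatarsals (0.183%) and 1 for the foot phalanges (0.41%). The regions called only in the 3 foot phalanx lists were chr13:53182018-53184255 and chr13:53204798-53206825, with best ranks of 60.6% to 89.5% and 62.1% to 89.5%.

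Ror1, the related receptor kinase, lies in a gene of 349.0 kb with 20 regions. It had 8, 17 and 10 called regions in metacarpals I, III and V, 9, 11 and 7 in hand phalanges, 12, 15 and 10 in metatarsals and 9, 12 and 9 in foot phalanges. Within each of the 4 elements the digit III list was the highest. Digit III lists averaged 13.75 ± 2.75 (SD, n = 4) and the others 9.25 ± 1.49 (n = 8), a difference of 4.5 with an exact permutation p of 0.0123, the smallest possible, and an adjusted p of 0.398. Of its regions, 2 were called in 3 of 4 digit III lists and in no other list, chr4:100044980-100046131 and chr4:100406944-100408386. The difference was 0.75 at equal list length (exact permutation p = 0.531) and 1.62 with the more significant 50% of peaks (exact permutation p = 0.284). The start region of Ror1, chr4:100094566-100098062, was called in all lists with best ranks of 7.55% to 18.7%.

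Lrp6, a co-receptor of beta-catenin signalling, had 9, 14 and 9 called regions in metacarpals I, III and V, 9, 11 and 7 in hand phalanges, 15, 14 and 10 in metatarsals and 9, 14 and 10 in foot phalanges. Digit III was the highest digit in every element but the metatarsals, where digit I was. The mean was 13.25 ± 1.5 in digit III lists (SD, n = 4) and 9.75 ± 2.31 in the others (n = 8), a difference of 3.5 (exact permutation p = 0.0247, adjusted p = 0.398). The difference was 2.25 at equal list length (exact permutation p = 0.037), and it did not pass with 10 kb flanks (1.5, exact permutation p = 0.21) or when peaks had to cover 50% of a region (2.75, exact permutation p = 0.21). It also missed the threshold on leaving out any metacarpal or hand phalanx list or the foot phalanx list of digit III or V (exact permutation p of 0.0556 or 0.0741). The region chr6:134542955-134545959 inside the gene was called in digit III lists alone, in all but hand phalanx III. An end of Lrp6 lay in chr6:134564103-134568659, called in all lists at best ranks of 7.75% to 24.3%. The digit III pattern of Ror1, Lrp6 and Sfrp1 came with longer digit III lists. The 9 chondrocyte markers moved the same way, with 70 to 92 called regions in digit III lists and 54 to 78 in the others. So did the perichondrium and osteoblast markers (36 to 44 against 30 to 38) and the endothelial markers (12 to 16 against 8 to 12). For the remaining marker sets the digit III range lay within that of the other digits. Per 10000 called regions the 3 genes stayed higher in digit III, by 0.57 for Ror1, 0.35 for Lrp6 and 0.34 for Sfrp1 (exact permutation p = 0.0123, 0.0494 and 0.0123), whereas at equal list length only Lrp6 of the 3 passed.

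Lrp5, the other co-receptor, had 6 to 8 called regions in a list (median 6.0) and 6 of its 9 regions in all lists. Fzd8, a Frizzled receptor gene, had 2 regions, with 1 called in metacarpal I and 2 in the other 11 lists. Its region over the gene had best ranks of 5.79% to 14.3%. Ryk, a receptor of the beta-catenin-independent branch, had 6.0 ± 1.26 called regions in phalanges and 4.0 ± 1.41 in metapodials (SD over 6 lists each, exact permutation p = 0.125). Its region chr9:102857728-102859615 was called in 5 of 6 phalanx lists, all but hand phalanx V, and in metatarsal I. A Fzd10 region 46.5 kb upstream, chr5:128551088-128554562, had the same pattern. The other 7 Frizzled receptors had between 2 and 8 called regions in a list, and none passed in any comparison at the main setting. Alternatives gave more regions in digit III for Fzd1 and Fzd4 (50% cover, 9.05% of all genes). The same held for Fzd7 with summit windows (11.3%) and Fzd6 with 100 kb flanks (16.2%). Fewer regions in digit V were found for Fzd3 at 50% cover and for Fzd9 with the more significant 50% of peaks.

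Among the antagonists, Sfrp1, which binds WNT ligands, had 4, 8 and 5 called regions in metacarpals I, III and V and 6, 7 and 5 in metatarsals. Hand phalanges had 2, 5 and 3 and foot phalanges 4, 6 and 4. At every digit and in both limbs the metapodial list was above its phalanx partner. The metapodial lists averaged 5.83 ± 1.47 and the phalanx lists 4.0 ± 1.41 (SD, n = 6 lists each), so that phalanges fell short by 1.83 (exact permutation p = 0.0312, adjusted p = 0.852). Lists of equal length gave -1.17 (exact permutation p = 0.188), and the more significant 50% of peaks gave -0.33 (exact permutation p = 0.75), neither past the threshold. The call was also lost on leaving out metacarpal III, metatarsal III, hand phalanx I or V, or foot phalanx V (exact permutation p from 0.0625 to 0.125). Sfrp1 was also higher in digit III, 6.5 ± 1.29 (SD, n = 4) against 4.12 ± 1.25 (n = 8, exact permutation p = 0.0123, adjusted p = 0.398), again not at equal list length (0.62, exact permutation p = 0.383). Its region chr8:23409057-23416544, over an end of the gene, had best ranks of 2.23% to 8.55%. A region on the far side of the gene, chr8:23451845-23455192, was called in all 6 hindlimb lists and, in the forelimb, in metacarpal III.

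Wif1, a secreted inhibitor that binds WNT ligands and is expressed in cartilage, had 7, 6 and 5 called regions in metacarpals I, III and V, 8, 4 and 5 in hand phalanges, 8, 6 and 4 in metatarsals and 6 in each foot phalanx list. The digit I list was the highest in each element but the foot phalanges, where the digits tied. Digit I lists averaged 7.25 ± 0.96 (SD, n = 4) against 5.25 ± 0.89 (n = 8), a difference of 2.0 (exact permutation p = 0.037, adjusted p = 1.0). It was 2.38 at equal list length (exact permutation p = 0.0247), 1.25 with 10 kb flanks (exact permutation p = 0.0741) and 0.25 with the more significant 50% of peaks (exact permutation p = 0.753). Leaving out any metacarpal, hand phalanx or metatarsal list ended the call (exact permutation p from 0.0556 to 0.111). Inside the gene, a stretch of 719 bp, chr10:121056533-121057251, was covered by peaks of all 4 digit I lists and of no other list. It was 1 of 10 stretches of 500 bp or more in the series with this digit I pattern. The region around it, chr10:121054832-121057763, was called in 11 lists, so the difference lay in the reach of the digit I peaks. Another region in the gene, chr10:121097543-121100491, was called in digit I of the metacarpals, hand phalanges and foot phalanges and in foot phalanx V. The metacarpal I peak in it shared no base with the foot phalanx peaks. They were joined into 1 region by the wider hand phalanx I peak (2.95 kb).

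Dkk3, a secreted Dickkopf protein that does not block the co-receptors in the way of Dkk1, had the most regions of the antagonists, 14. It had 8, 7 and 4 called regions in metacarpals I, III and V, 10, 6 and 5 in hand phalanges, 11, 7 and 4 in metatarsals and 8, 9 and 9 in foot phalanges. Digit I was the highest outside the foot phalanges. The 9.25 ± 1.5 regions in digit I (SD, n = 4) and 6.38 ± 2.0 in the other digits (n = 8) differed by 2.88, with an exact permutation p of 0.0741, and of 0.0494 at equal list length. Dkk2 had 2, 5 and 2 called regions in metacarpals I, III and V, 2, 3 and 3 in hand phalanges, 5, 2 and 3 in metatarsals and 3, 6 and 4 in foot phalanges (hindlimb against forelimb, exact permutation p = 0.344). A Dkk2 region inside the gene, chr3:132128236-132130811, was called in 5 of 6 hindlimb lists, all but metatarsal III, and in no forelimb list. The neighbouring region chr3:132137323-132139454 was called in all 6 phalanx lists and in metatarsal I. Counted with this tolerance of 1 list on each side, member regions numbered 4 for hindlimb (0.784% of all regions), 5 for phalanges (0.935%) and 3 for digit I (0.285%), the last at Axin2, Dkk3 and Wif1. Digit III had 7 (2.16%), metapodials 2 (1.07%), digits I and III 2 (0.893%) and digits I and V 1 (0.0137%). There were 0 for the forelimb (0.201%), digit V (0.0503%) and digits III and V (0.436%).

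Frzb, a cartilage-enriched antagonist that binds WNT ligands, had 3 called regions in each metacarpal list, 2, 4 and 2 in hand phalanges I, III and V, 3, 3 and 2 in metatarsals and 3, 5 and 2 in foot phalanges. Digit III lists averaged 3.75 ± 0.96 (SD, n = 4) and the others 2.5 ± 0.53 (n = 8, exact permutation p = 0.0741). Only its start region, chr2:80444641-80449483, was called in all 12 lists, at best ranks of 11.8% to 33.8%. Sfrp2, a relative of Sfrp1, had 4 to 7 called regions (median 6.5), the lowest in metacarpal I. Dkk1, which limits WNT signalling in the distal limb, had the same 3 regions called in all lists, 1 over the gene and the others 5.3 kb downstream and 3.4 kb upstream. Sfrp4 had 2 regions, both called in all lists, and Sfrp5 had 3 to 6 called regions with no comparison passed at the main setting. When peaks were counted in place of regions, Sfrp5 had fewer in digit V (4.5 against 5.88, exact permutation p = 0.037).

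Axin2, a target of beta-catenin signalling that helps to degrade beta-catenin, had 6, 6 and 5 called regions in metacarpals I, III and V, 7, 6 and 5 in hand phalanges, 7, 6 and 6 in metatarsals and 8, 6 and 8 in foot phalanges. Its broad start region, chr11:108917740-108930430, was called in all lists with best ranks of 6.52% to 21.8%. Digit I averaged 7.0 ± 0.82 (SD, n = 4) and the other digits 6.0 ± 0.93 (n = 8, exact permutation p = 0.0741). At equal list length the difference was 2.0 (exact permutation p = 0.0123). A region 10.6 kb upstream, chr11:108905066-108907184, was called in hand phalanx I, metatarsal I, foot phalanx I and foot phalanx V. At equal list length 3 members, Dkk3, Wif1 and Axin2, had more regions in digit I, where 2.85% of all genes did.

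Summed over the genes, with each region counted a single time, the members had 183 to 241 called regions in a list (median 212.0). Metacarpal III had the most and metacarpal V the fewest. Ligand windows ranged from 69 to 87, receptor windows from 72 to 105 and antagonist windows from 32 to 48. The wider range of receptors than of ligands did not hold after scaling to list length. Per 10000 called regions, ligands ranged from 16.57 to 23.37, receptors from 20.72 to 24.51 and antagonists from 9.19 to 11.12. The sums followed list length: digit III lists had 225.25 ± 16.01 (SD, n = 4) against 205.0 ± 20.67 in the others (n = 8), but per 10000 called regions of the list they had 50.64 ± 1.91 against 55.76 ± 3.02. At equal list length digit III had 11.62 fewer on average (the difference was -11.62). Digit I lists had 215.75 ± 17.88 against 209.75 ± 23.29 in digits III and V, which overlapped. Scaled to list length they had 57.11 ± 2.45 per 10000 called regions (SD, n = 4) against 52.52 ± 3.18 (n = 8). Digit V lists had 194.25 ± 19.21 against 220.5 ± 16.51, a gap that was gone per 10000 called regions (54.41 ± 3.24 against 53.87 ± 4.01). Hindlimb lists had 218.0 ± 19.41 and forelimb lists 205.5 ± 22.36 (SD, n = 6 each), and phalanges 214.17 ± 17.33 and metapodials 209.33 ± 25.62. In both of these pairs the groups overlapped. Sums over the members are descriptions and carry no test.

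**Figure D4:**
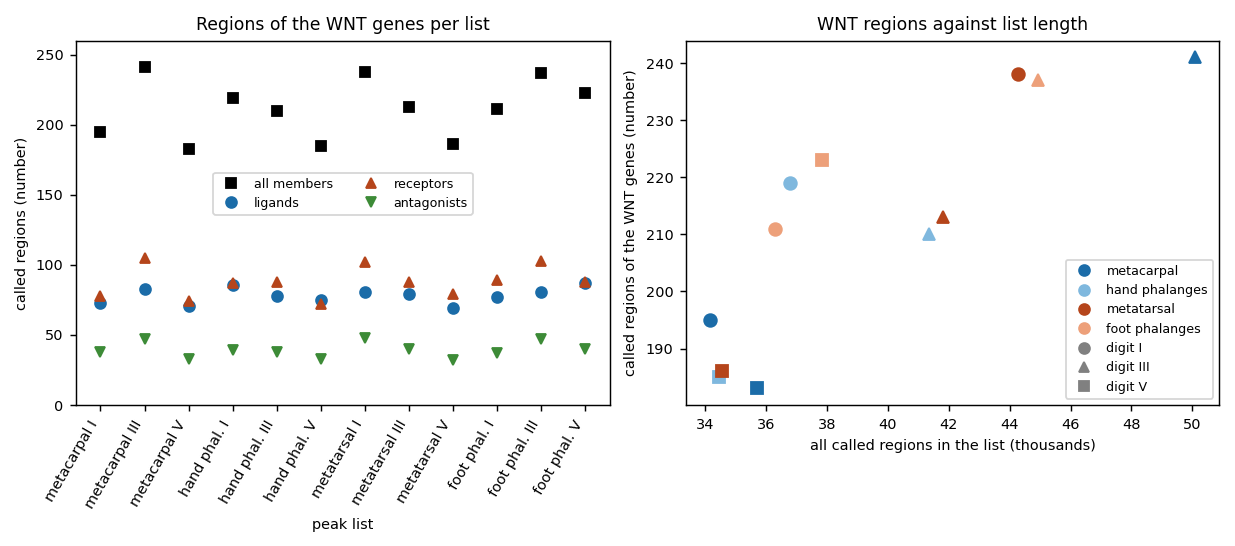
Left, called regions of all members, ligands, receptors and antagonists in each of the 12 lists; right, called regions of all members against the number of all called regions of the list, with colour for element and shape for digit. The longer lists, such as metacarpal III with 241 member regions, tend to have more at the WNT genes.

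The direction of single members was counted as well. In digit III, 25 of 44 members had more called regions than in digits I and V and 13 had fewer, with a median difference of 0.12, against 68.7% and 14.6% of all genes and a median of 0.25. In digit V, 35 had fewer and 5 had more (71.2% and 11.8% of all genes). In digit I, 21 had more and 15 fewer (34.3% and 46.5%), and between limbs 26 had more in hindlimb and 18 in forelimb lists (50.9% and 48.3%). Between elements, 25 had more in phalanges and 19 in metapodials, where of all genes 44.1% had more in phalanges and 55.0% in metapodials.

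Another 40 genes of the pathway, from ligand secretion to nuclear factors, were read in the same way, and each had at least 1 region that was called in all lists. None passed by limb, element or digit I. In digit III, 7 of 40 had more regions at an unadjusted exact p of 0.05, beside the 10.8% of all genes. They were Wls, which carries ligands to the surface, the signal enhancer Rspo2 and its receptor Lgr4, the Dkk receptor Kremen2, the TCF factor Tcf7l1, and the planar polarity genes Vangl1 and Prickle2. Prickle2 had 8.5 ± 2.08 in digit III (SD, n = 4) against 6.0 ± 1.07 (n = 8, exact permutation p = 0.0247, adjusted p = 0.398). In digit V, 5 of 40 had fewer regions, beside 3.38% of all genes: Kremen2, Ctnnbip1, Lef1, Tcf7l2 and Prickle1. Lef1, a nuclear partner of beta-catenin, had 7.5 ± 1.0 in digit V against 8.62 ± 0.74 in digits I and III (SD, n = 4 and 8, exact permutation p = 0.0247, adjusted p = 1.0).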

How the data were processed

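ATAC-seq libraries of 36 samples formed 12 groups of 3. Per the submitters' processing notes, the build was mm10 and the tools were MACS3, Picard 2.9.0 and Bowtie2 2.3.4.1, with no roles given. Trimming, read filters and any shift of reads for the transposase are not given in the sources used here. The deposited lists give 1 set of peaks per group, pooled over its libraries per the peak names, with an irreproducible discovery rate of 0.05 in the list names. Each deposited peak has a fold enrichment (a ratio), a −log10 p-value and a score. Read depth is unknown from these lists. With no values per library, no error within a group could be computed.

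Peaks sharing 1 bp were merged across lists, and regions were assigned to gene bodies extended by 50 kb, from a RefSeq gene table of GRCm38.p6 (Python 3.11.15, numpy 2.4.6, pandas 2.3.3, matplotlib 3.10.9). Of 21887 protein-coding genes, 19301 had a region and were tested. Differences in called regions were tested per gene by two-sided exact permutation of list labels within strata of the other factors (32 distinct splits for limb and element, 81 labellings for digits), with Benjamini-Hochberg adjustment over all tested genes. Lists, not animals, were the units, so p-values measure only the spread between lists. The code was tested on simulated data. Named members were those at an exact p of 0.05 or less, those with a separating region, the 3 with most regions per class with ties, and a set of genes known in cartilage and joints. Others are named where said. The members and lists were chosen with earlier results of these data known. Alternatives were peak cover, peak significance, list length, summit windows, flanks, peaks for regions, scaling, and leaving out each list.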

Additional observations from a re-analysis of the deposited data

Results flagged for a closer look

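In 14 of 116 groups of lists examined, 1 list lay far from the others of its group by Dixon's criterion. Chance meets it in about 1 in 20 groups of continuous values, but among small tied counts a single list that differs from equal others meets it by construction, so the 14 cannot be read against that rate. Foot phalanx V had 223 called regions over all members and 40 over the antagonists, above the other digit V lists. Wnt5a was set apart in all 3 digits by its foot phalanx list, with 3 called regions in digit I, 2 in digit III and 5 in digit V, against 1 in the other lists. Lrp6 had 15 called regions in metatarsal I, above the other digit I lists, and 11 in hand phalanx III, below the other digit III lists. Hand phalanx III also had 4 for Wif1, below the other digit III lists. Wnt4 had 4 called regions in hand phalanx I among the phalanx lists, and Dkk2 had 5 in metacarpal III among the forelimb lists. Frzb was set apart with 5 in foot phalanx III among hindlimb lists, 2 in metatarsal V among metapodial lists, 2 in hand phalanx I among digit I lists and 3 in metacarpal V among digit V lists.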

How the results depend on the processing

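No paired analysis was possible because the lists were pooled over replicates, so that no replicate number could serve as a block; lists were matched by the other factors only. The number of members past the threshold was small and moved with the processing, and the cause was not tested. Beside each number of members past the threshold stands the share of all genes that passed in either direction. For member regions that separated classes, no share of all regions was computed at these settings. When peaks had to cover 50% of a region, 1 member passed by limb (Fzd2, 0.896% of all genes), 2 by element (2.38%), 6 in digit III (9.33%) and 3 in digit V (3.35%). At that setting 0 regions separated classes, and 17 members kept an open start in all lists. With the more significant 50% of peaks, 1 passed by limb (Ror2, 0.248%), 2 by element (Ror2 and Axin2, 0.832%), 0 in digit I (0.49%) and 5 in digit V (3.09%), with 3 separating regions. At equal list length, 1 passed by limb (Fzd2, 0.812%), 1 by element (Wnt7b in place of Sfrp1, 3.02%), 3 in digit I (3.78%), 2 in digit III (Lrp6 higher and Ror2 lower, 3.1%) and 1 in digit V (Wnt7b, 1.32%). The separating regions were then 0, and the sum over members differed by 15.75 in digit I, by -11.62 in digit III, a reversal, and by -4.12 in digit V. With 500-bp summit windows, 2 passed in digit I (1.79%) and 1 in digit V (4.2%), with 3 separating regions. With 10 kb flanks 0 passed by element (0.922%). With 100 kb flanks 2 passed by limb (1.11%), 0 by element (3.01%), 3 in digit I (2.2%) and 5 in digit III (16.2%). Counting peaks gave 2 in digit I (1.8%) and 1 in digit V (4.25%). Per 10000 called regions, 4 passed by limb (3.9%), 4 by element (9.9%), 3 in digit I (6.55%), 17 in digit III (29.8%) and 3 in digit V (5.84%). The sums then differed by 4.58 in digit I and, reversed, by -5.12 in digit III and 0.53 in digit V. Single values that reversed were Sfrp1 by limb at 50% cover (-0.33), Wnt4 by element with the more significant 50% of peaks and with 10 kb flanks (0.17 each), and Lrp6 by limb at equal list length (-0.17).

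Leaving out each list in turn gave 0 to 1 members by limb (0.316% to 1.02% of all genes), 0 to 2 by element (1.16% to 2.79%), 0 to 2 in digit I (0.43% to 1.36%), 2 to 3 in digit III (2.9% to 12.2%) and 0 to 1 in digit V (0.979% to 3.45%). In digit III the lowest share of all genes came without metacarpal III, where 2 members passed. The sums then differed by 8.0 to 19.6 by limb, -0.43 to 11.17 by element, -1.42 to 12.92 in digit I, 15 to 25.33 in digit III and -35.83 to -22.5 in digit V. The sum reversed by element without metacarpal V (-0.43) and in digit I without metatarsal I (-1.42). The tolerance of 1 list and the search for stretches of 500 bp were chosen after seeing the data. A region counts as called or not, so weak peaks near a list's threshold weigh as much as strong ones, and the pooled lists give no error within a group.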

Other observations

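Of the member regions called in all 12 lists, the 3 with the highest median rank lay at the Frizzled receptors Fzd5, Fzd4 and Fzd1, named after their values were seen. None of these genes passed by limb, element or digit at the main setting. When peaks had to cover 50% of a region, Fzd1 and Fzd4 had more regions in digit III (exact permutation p = 0.0247 and 0.037). At that setting 9.05% of all genes did so. Fzd1 also passed in digit III with 100 kb flanks. A region overlapping Fzd5, chr1:64731629-64739909, had best peaks at 0.357% to 1.1% from the top of the 12 lists by −log10 p. The region over Fzd4, chr7:89401199-89412746, stood at 0.644% to 1.82%, and that over Fzd1, chr5:4754072-4760036, at 0.65% to 2.2%. All 3 regions were called in every list.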
